A study of Mus musculus with 49 samples.

Results

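Genes that load peptides onto major histocompatibility complex (MHC) class II were followed in the neocortex of an inducible mouse model of TDP-43 proteinopathy. The set comprised H2-Aa, H2-Ab1, H2-Eb1, Cd74, Ciita, H2-DMa and H2-DMb1, taken from the gene table by their symbols, which gave 7 of 45252 genes, and all 7 passed the filter on low counts that 18220 genes passed. The RNAseq covered 49 mice in 4 groups, with 1 library per mouse. ctrl-PBS (n = 17, 10 females and 7 males) were monogenic mice, which do not express the disease transgene. The 32 bigenic mice (rNLS8) received PBS (TDP-PBS, n = 10, 4 females and 6 males), TDP-43 peptides 10 and 12 from the glycine-rich domain (TDP-10+12, n = 10, 6 females and 4 males) or peptide 15, which carries the phosphorylation site of pathological TDP-43 (TDP-15, n = 12, 5 females and 7 males). In rNLS8 mice the neurofilament heavy chain promoter drives a doxycycline-controlled transactivator in neurons, and removal of doxycycline lets it switch on a human TDP-43 that cannot enter the nucleus (hTDP-43ΔNLS). Every mouse, controls included, was on the mixed C57BL/6J x C3H/HeJ background and was injected from 8 weeks of age, 5 times before and 1 time after induction. Peptide groups received 40 µg of ovalbumin-peptide conjugates, mixed with a CpG oligonucleotide and, in the paper's rNLS8 regimen, Alhydrogel adjuvant. The paper states that control groups received PBS in place of the conjugates, so peptide and PBS groups also differ in ovalbumin. All mice lost doxycycline from their chow at 25.5 weeks and were perfused and dissected at 28.5 weeks. The comparisons address how the class II genes differ between bigenic and monogenic mice, and between peptide-injected and PBS-injected bigenic mice. Immunized monogenic mice were not analysed here.

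Class II molecules carry peptides from ingested or internal proteins to the surface of antigen-presenting cells, where CD4+ T cells read them. An α chain and a β chain (H2-Aa with H2-Ab1 for I-A, H2-Ea with H2-Eb1 for I-E) form the peptide groove, the invariant chain (Cd74) fills it on the way to the endosome, and the DM heterodimer (H2-DMa with H2-DMb1) exchanges the last invariant chain fragment for a peptide. The coactivator CIITA (Ciita), induced by interferon-gamma, is recruited to conserved promoter elements, the X box bound by the RFX complex and the Y box bound by NF-Y, and governs how much class II a cell makes. In the healthy brain, border-associated macrophages, dendritic cells and rare B cells express class II, whereas resting microglia carry little of it and can acquire it on activation.

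Promoter stretches are shown because class II genes are known for a shared promoter layout, which these letters display. In the RefSeq promoter windows of GRCm38.p6, which run from 250 bases before to 50 bases after a start site, 4 members had an entry, with 5 windows in all. Those of H2-Ab1, Cd74 and Ciita were not used here. The letters GNAAC (the core of an X box) followed by TGATTGG (a Y box) were searched for after the windows had been read, on the gene's strand, and stand in capitals below, 5′ to 3′. The members' lines are H2-Aa at chr17:34287862-34287909 (minus strand), H2-Eb1 at chr17:34305771-34305817 (plus strand) and H2-DMb1 at chr17:34153092-34153139 (plus strand), and those of 2 neighbouring class II genes that hold the pair are H2-Oa at chr17:34092298-34092345 (plus strand) and H2-Ob at chr17:34238813-34238857 (plus strand).
H2-Aa: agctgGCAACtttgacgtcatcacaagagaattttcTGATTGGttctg
H2-Eb1: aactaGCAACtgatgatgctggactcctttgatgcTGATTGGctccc
H2-DMb1: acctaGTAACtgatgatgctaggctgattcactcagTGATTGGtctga
H2-Oa: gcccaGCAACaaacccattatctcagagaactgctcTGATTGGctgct
H2-Ob: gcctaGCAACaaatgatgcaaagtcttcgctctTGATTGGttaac

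The 2 capitalised motifs were 26 bases apart in H2-Aa, 25 in H2-Eb1, 26 in H2-DMb1, 26 in H2-Oa and 23 in H2-Ob, and the first letter of the pair lay 76 to 94 bases before the start. TGATTGG was present on either strand in 7.82% of 32851 promoter windows, and the pair with 10 to 40 bases between its parts in 0.828%. At a gap of 23 to 26 bases on the gene's strand the pair was found in 19 windows (0.0578%), and 6 of their symbols began with H2-, the 5 printed above and H2-Eb2. That range of gaps was set from the 5 printed stretches, which are therefore in the count by construction. Neither window of H2-DMa nor that of the neighbouring class II gene H2-DMb2 held the pair, which says only that these letters were not in those windows. A letter match is a description and does not show that a factor bound there.

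On GRCm38.p6, 5 of the members lay within 197.0 kb of chromosome 17, namely H2-DMa (34119693 to 34139101), H2-DMb1 (34153191 to 34160229), H2-Ab1 (34263227 to 34269418), H2-Aa (34282744 to 34287823) and H2-Eb1 (34305867 to 34316674). Ciita was annotated at 10480014 to 10531064 of chromosome 16. Cd74 was annotated at 60803849 to 60812652 of chromosome 18. The strand setting of the counting is not given in the sources used here, so reads of overlapping genes may not have been told apart. The annotated span of H2-DMa shares 3122 bases with that of Brd2, a highly expressed neighbour, Ciita shares 858 bases with Dexi and 15932 with a predicted gene, and H2-DMb1 has the close copy H2-DMb2. Values of these 3 members are therefore uncertain in that respect.

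Total counts per mouse ranged from 17775738 to 21033608 (median 19955601), and the level of 3 counts corresponded to 0.139 to 0.165 CPM (counts relative to the library's total, here scaled by TMM factors), a floor that covers counting error only. Tardbp, the mouse gene for TDP-43, had a median of 147 CPM in ctrl-PBS and of 119 to 122 CPM in the bigenic groups, and 0 of 32 bigenic mice exceeded the highest ctrl-PBS mouse. How many of these counts come from the human transgene was not tested. One library stood apart in the class II genes. Among all 49 mice, the male ctrl-PBS mouse 232 ranked 1 for H2-Aa and H2-Eb1, 2 for Ciita, 5 for Cd74, 6 for H2-Ab1 and 7 for H2-DMb1, but 30 for H2-DMa. Its label was kept, and the results of each member against ctrl-PBS and the main counts are given with and without this mouse, a choice made after its values had been seen. Its summed microglial markers ranked 29 and its B cell markers 47 of 49. What set this mouse apart was not tested.

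In the cortex of bigenic mice, class II α and β chains of I-A, the invariant chain and H2-DMa were more abundant than in ctrl-PBS. With edgeR's quasi-likelihood test (adjusted p under 0.05 over all genes tested), 4 of 7 members rose in TDP-PBS (H2-Aa, H2-Ab1, Cd74 and H2-DMa), 3 in TDP-10+12 (the same without H2-Aa) and the same 4 in TDP-15. No member fell in any of these comparisons. Of all genes tested, 21.9% were higher and 21.6% lower in TDP-PBS, 20.8% higher and 20.0% lower in TDP-10+12, and 23.6% higher and 23.2% lower in TDP-15. The median log2 fold change of the 7 members was 0.84, 0.64 and 0.80 in that order, beside -0.0004, 0.0031 and -0.0015 over all genes tested. Without ctrl-PBS mouse 232, 6, 5 and 7 members rose, beside 21.6%, 20.5% and 23.4% of 18209 genes. All 3 comparisons share the ctrl-PBS mice, and in bulk tissue more cells of a type and more RNA per cell cannot be told apart.

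The I-A α chain H2-Aa had 1.38 CPM in the lowest, 1.88 in the median and 21.5 in the highest ctrl-PBS mouse, the latter being mouse 232. Corresponding levels were 1.98, 5.12 and 16.5 CPM in TDP-PBS, 2.79, 5.09 and 12.3 CPM in TDP-10+12, and 1.29, 5.62 and 14.8 CPM in TDP-15. The ranges overlapped in full because of mouse 232, whereas the other 16 ctrl-PBS mice had 2.10 ± 0.65 CPM (SD, n = 16) and 27 of 32 bigenic mice lay above all of them. H2-Aa rose in TDP-PBS (log2 fold change 0.96 ± 0.36 SE, 1.95-fold, edgeR adjusted p = 0.0277) and in TDP-15 (0.98 ± 0.35, 1.98-fold, adjusted p = 0.0170). In TDP-10+12 it missed the threshold, with a log2 fold change of 0.85 (95% interval 0.11 to 1.58) and an adjusted p of 0.0586. These calls turned on single mice. The call in TDP-PBS was lost without TDP-PBS mouse 82 (log2 fold change 0.68, adjusted p = 0.134) or 196 (0.87, adjusted p = 0.0584), and that in TDP-15 without TDP-15 mouse 126 (0.80, adjusted p = 0.0573). Over all alternatives the adjusted p ranged from 4.92e-06 to 0.176 in TDP-PBS and from 1.56e-06 to 0.0573 in TDP-15. Without mouse 232 the log2 fold changes were 1.59, 1.47 and 1.61, past the threshold in all 3 groups.

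Its partner H2-Ab1, the I-A β chain, had a similar pattern with firmer calls. ctrl-PBS mice had 0.647 (lowest), 2.29 (median) and 15.1 CPM (highest, mouse 232), TDP-PBS mice 2.03, 5.17 and 15.7 CPM, TDP-10+12 mice 3.84, 5.43 and 16.1 CPM, and TDP-15 mice 2.51, 5.87 and 22.1 CPM. Of the bigenic mice, 5 exceeded every ctrl-PBS mouse and 29 of 32 exceeded every ctrl-PBS mouse other than 232. The log2 fold changes were 1.29 ± 0.36 in TDP-PBS (SE, 2.45-fold, edgeR adjusted p = 0.00280), 1.21 ± 0.36 in TDP-10+12 (2.31-fold, adjusted p = 0.00571) and 1.43 ± 0.34 in TDP-15 (2.69-fold, adjusted p = 0.000521). Each call held whichever of the 49 mice was left out, and without mouse 232 the values were 1.73, 1.64 and 1.86.

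For the I-E β chain H2-Eb1, the least abundant of the 3 chains per kb of exon, the groups were not told apart with all mice. Levels ran from 0.256 through a median of 0.861 to 9.35 CPM in ctrl-PBS, from 0.575 through 1.61 to 6.15 CPM in TDP-PBS, from 0.499 through 1.43 to 5.19 CPM in TDP-10+12 and from 0.597 through 1.68 to 7.59 CPM in TDP-15. Bigenic mice were spread over a wide range that included the low ctrl-PBS mice, and 0 of 32 passed mouse 232. Log2 fold changes were 0.84 (95% interval -0.09 to 1.77, edgeR adjusted p = 0.141), 0.64 (-0.30 to 1.58, adjusted p = 0.282) and 0.80 (-0.09 to 1.69, adjusted p = 0.136). Here 1 library decided the call. Without mouse 232 the log2 fold changes were 1.51, 1.32 and 1.47, with edgeR adjusted p-values of 0.00181, 0.00731 and 0.00141, and H2-Eb1 passed the threshold in all 3 groups. Over all alternatives its adjusted p ranged from 0.00181 to 0.355 in TDP-PBS, from 0.00731 to 0.550 in TDP-10+12 and from 0.00141 to 0.409 in TDP-15.

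**Figure D1:**
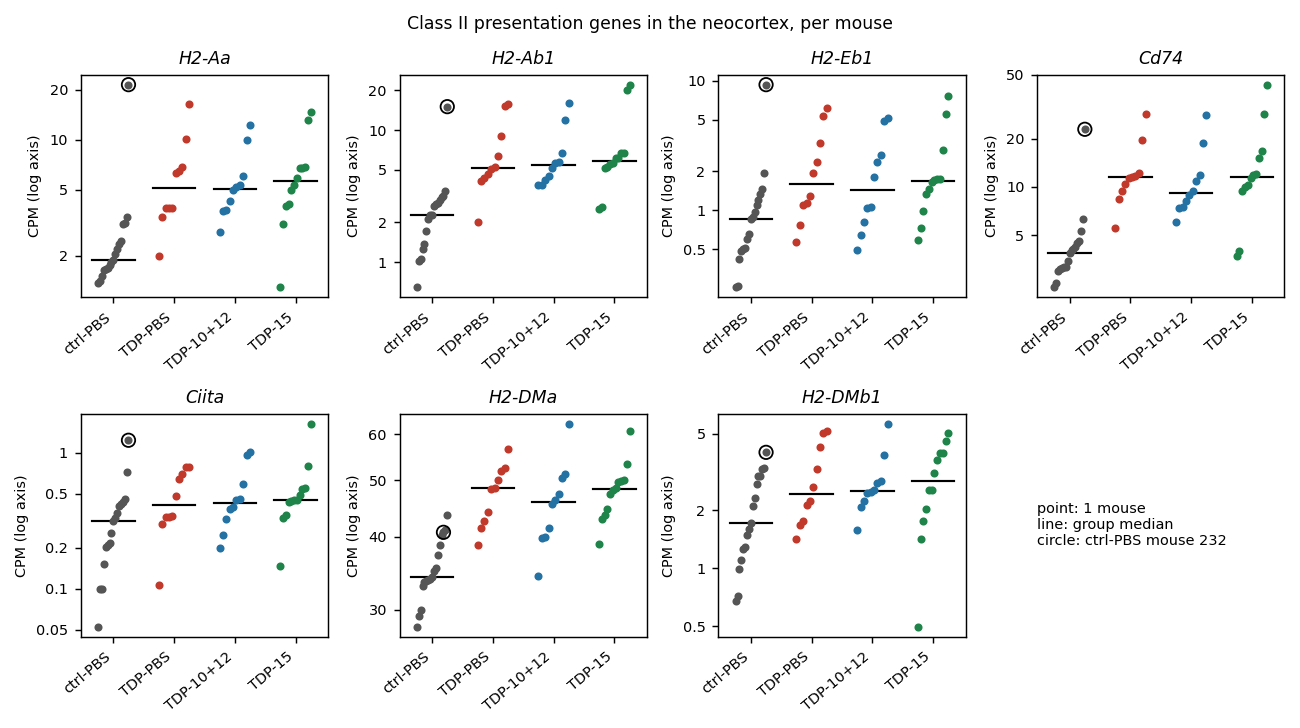
Levels of the 7 class II presentation genes per mouse, in CPM on a log axis, by group. Each point is 1 mouse, the line is the group median and the circle marks ctrl-PBS mouse 232, which lies among or above the highest bigenic mice for H2-Aa, H2-Ab1, H2-Eb1, Cd74 and Ciita but within the ctrl-PBS range for H2-DMa.

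The invariant chain Cd74 showed the largest fold changes of the 7 members in all 3 comparisons with every mouse included. It had 2.37, 3.85 and 22.9 CPM (lowest, median and highest) in ctrl-PBS, 5.51, 11.5 and 28.4 CPM in TDP-PBS, 6.06, 9.16 and 28.1 CPM in TDP-10+12, and 3.68, 11.6 and 43.5 CPM in TDP-15. Apart from mouse 232, no ctrl-PBS mouse passed 6.28 CPM, a level that 28 of 32 bigenic mice exceeded. Cd74 rose by a log2 fold change of 1.38 ± 0.32 in TDP-PBS (SE, 2.61-fold, edgeR adjusted p = 0.000323), 1.25 ± 0.32 in TDP-10+12 (2.38-fold, adjusted p = 0.00123) and 1.58 ± 0.30 in TDP-15 (2.99-fold, adjusted p = 2.15e-05). All 3 calls held without any 1 of the 49 mice, and the values were 1.76, 1.62 and 1.95 without mouse 232.

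Of the DM pair, which edits the peptides bound to class II, H2-DMa rose by less than the chains but with far less spread. Its levels were 28.1, 34.1 and 43.6 CPM (lowest, median and highest) in ctrl-PBS, 38.8, 48.4 and 56.6 CPM in TDP-PBS, 34.3, 45.9 and 62.4 CPM in TDP-10+12, and 39.0, 48.3 and 60.7 CPM in TDP-15. All 32 bigenic mice lay above the ctrl-PBS median and 22 of 32 above every ctrl-PBS mouse. The log2 fold changes were 0.42 ± 0.07 (SE, 1.34-fold, edgeR adjusted p = 2.86e-06), 0.38 ± 0.07 (1.30-fold, adjusted p = 2.72e-05) and 0.44 ± 0.07 (1.36-fold, adjusted p = 3.31e-07), and leaving out any 1 mouse changed none of these calls. Without mouse 232 the values were 0.44, 0.39 and 0.46. How many of these counts come from Brd2 transcripts was not tested.

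Its partner H2-DMb1 was measured on far fewer counts. ctrl-PBS mice had 0.674, 1.72 and 4.01 CPM, TDP-PBS mice 1.41, 2.44 and 5.17 CPM, TDP-10+12 mice 1.58, 2.52 and 5.63 CPM, and TDP-15 mice 0.497, 2.85 and 5.04 CPM. The groups overlapped over most of their range, with 6 of 32 bigenic mice above every ctrl-PBS mouse. H2-DMb1 did not pass the threshold, with log2 fold changes of 0.54 (95% interval 0.01 to 1.07, edgeR adjusted p = 0.0941), 0.49 (-0.05 to 1.02, adjusted p = 0.140) and 0.52 (0.02 to 1.03, adjusted p = 0.0834). Without mouse 232 it passed in TDP-PBS (0.63, adjusted p = 0.0483) and TDP-15 (0.61, adjusted p = 0.0407) and not in TDP-10+12 (0.58, adjusted p = 0.0758). Without TDP-15 mouse 284, the lowest in this gene, the value in TDP-15 was 0.63 (adjusted p = 0.0271). Over all alternatives the adjusted p ranged from 0.0483 to 0.225 in TDP-PBS, from 0.0649 to 0.344 in TDP-10+12 and from 0.0271 to 0.176 in TDP-15.

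The coactivator Ciita was close to the limit of detection. Mice had 1 to 24 counts in ctrl-PBS, 2 to 15 in TDP-PBS, 4 to 20 in TDP-10+12 and 3 to 32 in TDP-15, and 3 counts or fewer were found in 4, 1, 0 and 1 mice. The median level was 0.312 CPM in ctrl-PBS, 0.410 in TDP-PBS, 0.423 in TDP-10+12 and 0.448 in TDP-15. The largest values were 1.62 CPM in TDP-15 mouse 126 and 1.23 CPM in ctrl-PBS mouse 232. At this depth no difference was detectable, with log2 fold changes of 0.45 (95% interval -0.24 to 1.13, edgeR adjusted p = 0.301), 0.51 (-0.17 to 1.19, adjusted p = 0.235) and 0.64 (-0.003 to 1.28, adjusted p = 0.0955), intervals that reach beyond a 2-fold rise. Without mouse 232, Ciita passed the threshold in TDP-15 (0.88, adjusted p = 0.0143) and not in TDP-PBS (0.69, adjusted p = 0.0794) or TDP-10+12 (0.75, adjusted p = 0.0554). Over all alternatives the adjusted p ranged from 0.0143 to 0.367 in TDP-15.

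**Figure D2:**
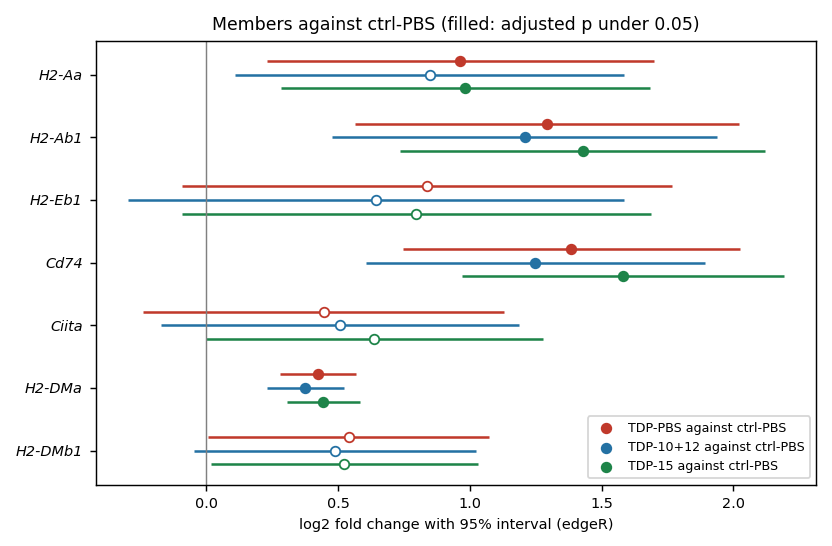
Log2 fold changes of the 7 members against ctrl-PBS with 95% intervals from edgeR, in TDP-PBS, TDP-10+12 and TDP-15 (filled points: adjusted p under 0.05). H2-Ab1, Cd74 and H2-DMa are filled in every group, and the interval of H2-DMa (0.28 to 0.57 in TDP-PBS) is much narrower than that of Cd74 (0.74 to 2.03).

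Markers of cells that can carry class II moved with these genes to different degrees. The counts of markers below stand beside 21.9%, 20.8% and 23.6% of all genes called higher in TDP-PBS, TDP-10+12 and TDP-15. Of 6 microglial markers, 4 rose in each bigenic group (Itgam 0.46, Tmem119 0.46, Csf1r 0.43 and Cx3cr1 0.36 on the log2 scale in TDP-PBS), while P2ry12, a marker of resting microglia, was at -0.09 in TDP-PBS (not called) and fell in TDP-10+12 and TDP-15 by 0.18 and 0.15 (calls lost without TDP-10+12 mouse 277, or without TDP-15 mouse 184 or 254). The remaining microglial marker, Aif1, was not called in any group (0.29, 0.10 and 0.03, edgeR adjusted p = 0.0514, 0.545 and 0.868). In TDP-PBS it passed without any 1 of 26 of the 49 mice. The summed level of the microglial markers was 167 to 194 CPM in ctrl-PBS, 194 to 265 in TDP-PBS, 175 to 250.4 in TDP-10+12 and 173 to 299 in TDP-15. Of 6 markers of border and perivascular macrophages, 4 rose in TDP-PBS and TDP-10+12 and 2 in TDP-15, led by Lyve1, the hyaluronan receptor of perivascular macrophages (1.28 in TDP-PBS), Cbr2 (0.80) and Cd163 (0.68). Several of these calls were near the threshold, since Cd163 in TDP-PBS was lost without any 1 of 10 mice, F13a1 in TDP-PBS and TDP-10+12 without any 1 of 3 and of 19, Mrc1 in TDP-10+12 without any 1 of 12, and the microglial Tmem119 in TDP-10+12 without TDP-10+12 mouse 200. Without mouse 232 the numbers of microglial and macrophage markers called were unaltered. The summed level of the macrophage markers was 4.09 to 8.91 CPM in ctrl-PBS, 5.77 to 15.6 in TDP-PBS, 5.83 to 11.1 in TDP-10+12 and 6.98 to 11.05 in TDP-15. How much of the class II levels either cell type accounts for was not tested.

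Of the markers of dendritic cells and lymphocytes, some were at or near 0 and others were well detected. The conventional dendritic cell genes Xcr1 and Clec9a had 0 counts in 25 and 30 of 49 mice and at most 5 and 6 counts, the B cell gene Ms4a1 0 counts in 30 mice and at most 6, and the T cell genes Cd3d and Cd8a 0 counts in 40 and 26 mice and at most 6. Zbtb46 and Flt3, transcription factor and cytokine receptor of dendritic cells, had 140 to 241 and 117 to 207 counts in ctrl-PBS. Siglech, a plasmacytoid dendritic cell gene that microglia also express, had 215 to 325. The B cell genes Cd79a and Pax5 were detected in every mouse, each with at most 41 counts. Cd79a was not called in any group. Pax5 was called higher in TDP-15 (0.57 on the log2 scale, edgeR adjusted p = 0.0416). This call was lost without any 1 of 10 of the 49 mice. Siglech rose in all 3 groups (0.36, 0.28 and 0.33 on the log2 scale) and Zbtb46 fell in all 3 (-0.28, -0.35 and -0.36), while Flt3 was called lower in TDP-15 (-0.25), a call lost without any 1 of 36 of the 49 mice. Which cells the Zbtb46, Flt3 and Siglech counts come from was not tested. Over the whole lists the summed level of 7 dendritic markers was 28.6 to 35.7 CPM in ctrl-PBS and 26.1 to 37.6 CPM over the bigenic groups, that of 4 B cell markers 1.18 to 2.48 and 1.001 to 3.92 CPM, and that of 6 T cell markers, most of it Cd4, 1.90 to 35.7 and 4.38 to 15.3 CPM. Of the neuronal markers Gad1, the GABA-synthesizing enzyme, fell in each bigenic group (-0.41 in TDP-PBS). Choroid plexus, whose stroma holds class II-positive macrophages, was present to very different extents. The summed level of its 3 markers ranged from 5.30 to 1603 CPM over the 49 mice, and Ttr, the transthyretin gene it expresses at high level, had a log2 fold change of 1.96 in TDP-PBS (edgeR adjusted p = 0.0709) and rose by 2.71 in TDP-10+12 (adjusted p = 0.0127) and 2.05 in TDP-15 (adjusted p = 0.0469). Its call was lost in TDP-10+12 without TDP-10+12 mouse 51 (1.70, adjusted p = 0.126) and in TDP-15 without any 1 of 18 of the 49 mice. Without the 2, 3, 2 and 3 mice of ctrl-PBS, TDP-PBS, TDP-10+12 and TDP-15 above 100 CPM of Ttr, a choice made after the values had been seen, 3, 3 and 4 members rose, beside 18.9%, 19.2% and 21.5% of 18378 genes, and H2-Aa in TDP-PBS was the call lost (0.71, adjusted p = 0.176).

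Because the genes differ in length, their levels were set side by side as CPM per kb of exon. In ctrl-PBS the medians were 12.8 CPM per kb for H2-DMa, 2.72 for Cd74, 1.89 for H2-Ab1, 1.66 for H2-Aa, 1.23 for H2-DMb1, 0.479 for H2-Eb1 and 0.0378 for Ciita. TDP-PBS mice had 18.2 CPM per kb for H2-DMa, 8.10 for Cd74, 4.54 for H2-Aa, 4.26 for H2-Ab1, 1.74 for H2-DMb1, 0.896 for H2-Eb1 and 0.0497 for Ciita. The order was alike in the other bigenic groups, with Cd74 at 6.47 and 8.20 CPM per kb in TDP-10+12 and TDP-15. H2-Aa and H2-Ab1 could not be ranked, since the one with the higher median was higher in only 9 of 17 ctrl-PBS, 5 of 10 TDP-PBS, 5 of 10 TDP-10+12 and 6 of 12 TDP-15 mice. Every other pair of neighbours kept its order in at least 14 of 17 ctrl-PBS mice and in all or all but 1 of the mice of each bigenic group. In the bigenic groups the ranges of H2-Eb1 and Ciita did not overlap, whereas those of all other neighbours did. How far reads of Brd2, whose span overlaps that of H2-DMa, bear on the rank of H2-DMa was not tested.

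Between bigenic groups that received peptide or PBS, no difference in the class II genes was detectable. In TDP-10+12 against TDP-PBS, TDP-15 against TDP-PBS and TDP-10+12 against TDP-15, edgeR called 0 of 7 members and 0% of all genes tested, with 953, 552 and 1244 genes and 0 members at an unadjusted p under 0.05. DESeq2 and limma-voom also called 0 members. For Cd74 the log2 difference was -0.14 (95% interval -0.85 to 0.57) for TDP-10+12 against TDP-PBS, 0.20 (-0.48 to 0.87) for TDP-15 against TDP-PBS and -0.33 (-1.01 to 0.35) for TDP-10+12 against TDP-15. The first 2 differences were -0.12 (-0.93 to 0.70) and 0.02 (-0.76 to 0.80) for H2-Aa and -0.09 (-0.89 to 0.72) and 0.13 (-0.63 to 0.90) for H2-Ab1. H2-DMa was bounded most tightly, at -0.05 (-0.21 to 0.11) and 0.02 (-0.14 to 0.18).

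Sex was examined in the 27 PBS-treated mice. The bigenic effect on Cd74 was smaller in males than in females by 1.42 ± 0.53 on the log2 scale (SE), with medians of 3.32 and 10.98 CPM in ctrl-PBS and TDP-PBS females and of 4.58 and 11.6 CPM in males. The edgeR interaction test gave a p of 0.0119 before and 0.741 after adjustment. It called 0 members and 0% of 17363 genes, with 1 member and 1097 genes at an unadjusted p under 0.05, and Ciita was not tested. The male ctrl-PBS mouse 232 bears on this value, since without it the difference was -0.74 ± 0.37 for Cd74 (adjusted p = 0.780).

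From mouse to mouse the I-A chains and the invariant chain moved together. The same 7 mice (TDP-15 mice 126 and 328, TDP-PBS mice 82 and 196, TDP-10+12 mice 130 and 47 and ctrl-PBS mouse 232) had the 7 highest levels of 49 for each of H2-Aa, H2-Ab1, H2-Eb1 and Cd74. Of these mice, 6 were also among the highest 7 for H2-DMb1, but 3 for Ciita and 3 for H2-DMa. The marker sums of cells that can carry class II were ranked among the 49 mice, in the order in which these 7 are named. Microglial sums ranked 1, 11, 6, 24, 10, 17 and 29, and border and perivascular macrophage sums 11, 22, 2, 44, 33, 5 and 36. Dendritic sums ranked 3, 1, 6, 24, 8, 30 and 13, and in that list Siglech, which microglia also express, had the highest level. B cell sums ranked 2, 8, 5, 49, 34, 11 and 47, and neutrophil and monocyte sums 16, 18, 3, 20, 29, 7 and 27. Which cells account for the class II levels of these mice was not tested.

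Correlations with Cd74 were computed on log2 CPM over the 32 bigenic mice after subtracting group means, with 100000 permutations and Benjamini-Hochberg adjustment over the other 6 members. H2-Ab1 gave r = 0.93 and rho = 0.88 and H2-Aa r = 0.89 and rho = 0.81, each with a permutation p of 1e-05, the smallest these permutations can give, and an adjusted p of 3e-05. For H2-Eb1, r was 0.69 (permutation p = 2e-05, adjusted 4e-05) and rho 0.57 (p = 0.00084, adjusted 0.00168). For H2-DMb1, r was 0.59 (permutation p = 0.00134, adjusted 0.00201) and rho 0.51 (p = 0.00384, adjusted 0.00576). Ciita (r = 0.17, rho = 0.13, permutation p = 0.368 and 0.486) and H2-DMa (r = 0.07, rho = 0.02, p = 0.691 and 0.937) showed no detectable relation. Without TDP-15 mice 284 and 126, the farthest from the median of Cd74, r was 0.92 for H2-Ab1, 0.86 for H2-Aa, 0.63 for H2-Eb1 and 0.43 for H2-DMb1, still past the threshold (adjusted permutation p of 0.0319 for H2-DMb1).

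Among the 17 ctrl-PBS mice, the relations were lost when mice 131 and 232 were left out together. There r with Cd74 was 0.88 for H2-Aa (permutation p = 0.00296, adjusted 0.0116), 0.79 for H2-Eb1 (p = 0.00387, adjusted 0.0116) and 0.69 for H2-Ab1 (p = 0.0155, adjusted 0.0309), while rho was 0.51, 0.47 and 0.35 (adjusted permutation p = 0.176, 0.176 and 0.353). Leaving out ctrl-PBS mice 131 and 232, the farthest from the median, r was 0.28, 0.43 and 0.0043, and none of these passed.

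**Figure D3:**
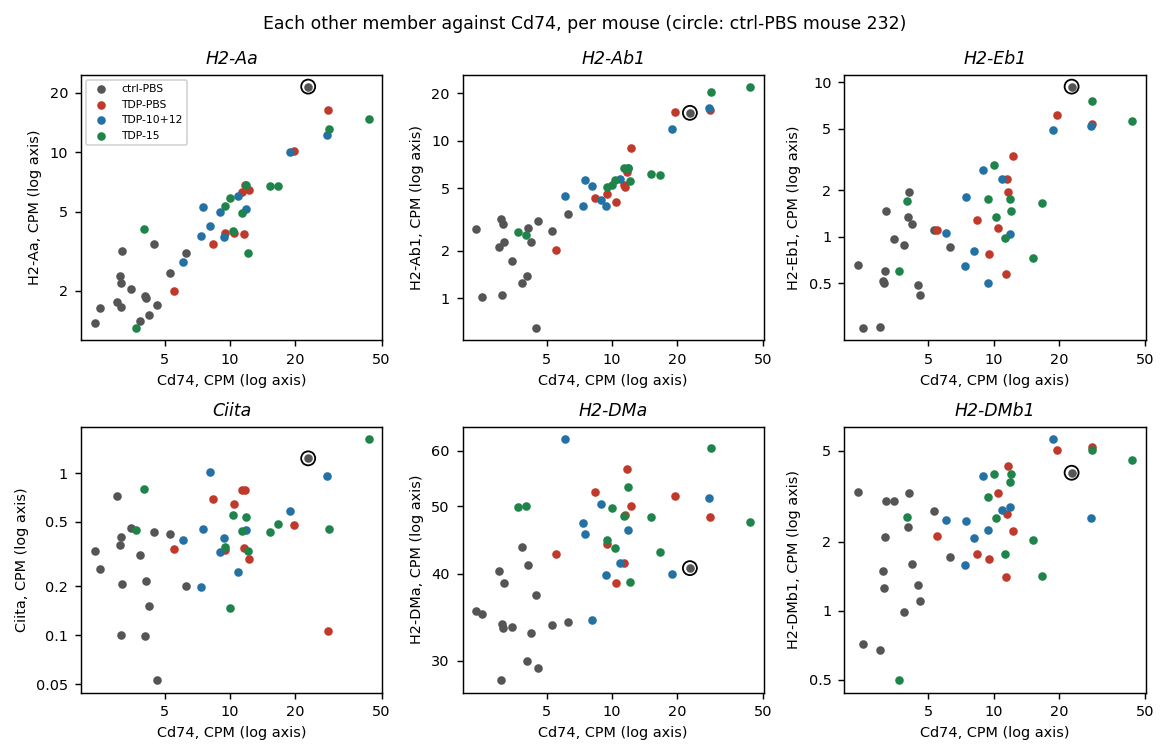
Level of each other member against that of Cd74 in each of the 49 mice, both in CPM on log axes, coloured by group, with ctrl-PBS mouse 232 circled. H2-Aa and H2-Ab1 follow Cd74 closely (r = 0.89 and 0.93 over the bigenic mice), H2-Eb1 and H2-DMb1 less so, and Ciita and H2-DMa do not form a line with it.

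The genes whose pattern across mice was most like each member were ranked over all tested genes, by Pearson's r of log2 CPM over the 49 mice after subtracting group means. For H2-Aa, the nearest 5 were Cd74 (r = 0.884), H2-Ab1 (0.805), H2-Eb1 (0.747), Gbp8 (0.613) and Cxcl9 (0.601), the last 2 being an interferon-inducible guanylate-binding protein and an interferon-gamma-induced chemokine. The list of H2-Ab1 held Cd74 (0.843), H2-Aa, H2-Eb1 (0.738), Gbp8 (0.598) and H2-DMb1 (0.568). Cd74 was nearest to H2-Aa, H2-Ab1, Cybb, a subunit of the phagocyte NADPH oxidase (0.730), H2-Eb1 (0.724) and Gbp8 (0.703). Next to H2-Eb1 came H2-Aa, H2-DMb1 (0.744), H2-Ab1, Cd74 and the class I gene H2-D1 (0.645).

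The nearest genes of H2-DMb1 were mostly outside the set, namely the class I heavy chain genes H2-D1 (r = 0.795), H2-K1 (0.735) and H2-Q6 (0.693), the class II gene H2-Eb1 and Cyp4f14, a cytochrome P450 of fatty acid metabolism (0.689). All 5 lie on chromosome 17 between 32903357 and 35430055, as does H2-DMb1 itself, in mice of mixed strain background. The part of inherited haplotypes in these values was not tested. Ciita, at low counts, was nearest to Lrrc6 (r = 0.608), Gm4981, Gm31530, Efcab8 and LOC115486428 (0.527), and H2-DMa to Rnf26 (0.548), Ndel1, Fbxw5, Eif4enif1 and Abhd12 (0.531). Neither list held a class II gene. Without mouse 232, r between H2-Aa and Cd74 was 0.846 and that between H2-DMb1 and H2-D1 0.790, whereas r of H2-Aa with Gbp8 was 0.524 and with Cxcl9 0.492.

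Other genes of the pathway were taken from a list of 40, of which 34 passed the filter. In TDP-PBS 18 rose and 3 fell, in TDP-10+12 17 rose and 5 fell, and in TDP-15 21 rose and 4 fell, with median log2 fold changes of 0.35, 0.33 and 0.41. Of all genes tested, 21.9% rose and 21.6% fell in TDP-PBS, 20.8% and 20% in TDP-10+12, and 23.6% and 23.2% in TDP-15. The same shares stand beside the counts for parts of the list below. No gene of the list was called between bigenic groups. Without mouse 232 the numbers were 18 and 3, 17 and 4, and 21 and 5, and without the mice above 100 CPM of Ttr 15 and 3, 18 and 4, and 19 and 3. The shares of all genes called higher were 21.6%, 20.5% and 23.4% without mouse 232, and 18.9%, 19.2% and 21.5% without the mice above 100 CPM of Ttr.

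Upstream of the class II promoters, 7 transcription factor genes were tested. Rfx5 and Rfxap, subunits of the RFX complex at the X box, rose in all 3 groups, Rfx5 by 0.36, 0.34 and 0.41 and Rfxap by 0.25, 0.26 and 0.22 on the log2 scale. Rfx5 had 19.2, 22.2 and 26.1 CPM (lowest, median and highest) in ctrl-PBS and 23.3, 27.8 and 35.9 CPM in TDP-PBS. Nfyb, a subunit of the Y box factor NF-Y, fell by 0.59, 0.45 and 0.49, and all 10 TDP-PBS mice (9.76 to 14.3 CPM) lay below every ctrl-PBS mouse (16.3 to 22.2 CPM). The third RFX subunit Rfxank passed in TDP-15 (0.20), and Nfyc fell in TDP-10+12 (-0.11), calls lost without any 1 of 5 and of 20 of the 49 mice, while Nfya and Creb1 were not called in any group.

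In the interferon-gamma pathway, which induces Ciita, 3 of 6 genes tested rose in each group, beside 21.9%, 20.8% and 23.6% of all genes tested. The receptor subunits Ifngr2 (0.83, 0.84 and 0.85) and Ifngr1 (0.55, 0.47 and 0.46) and the transcription factor Irf1 (0.36, 0.48 and 0.48) were these 3, as log2 fold changes in TDP-PBS, TDP-10+12 and TDP-15. Jak2, the kinase bound to the receptor, fell by 0.17 in TDP-10+12, a call lost without any 1 of 25 of the 49 mice, and by 0.18 in TDP-15. The gene for the ligand, Ifng, did not pass the filter.

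Among 7 genes of endosomal processing, 6 rose in TDP-PBS, 5 in TDP-10+12 and 6 in TDP-15, beside 21.9%, 20.8% and 23.6% of all genes tested. Ctss, the cathepsin that trims the invariant chain, rose by 1.14 ± 0.13, 1.04 ± 0.13 and 1.27 ± 0.12 (log2, SE), from a median of 24.3 CPM in ctrl-PBS to 56.3, 53.7 and 57.7 CPM. The lysosomal thiol reductase Ifi30 rose by 0.996, 0.83 and 1.19 and the aspartic protease Ctsd by 0.95, 0.85 and 0.99. Ctsb, another lysosomal cathepsin, was not called (0.005, -0.07 and 0.02).

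Of the other class II genes next to the members, H2-Ob, a chain of the DM inhibitor DO, rose in TDP-PBS (0.67) and TDP-15 (0.76) and had 0.46 in TDP-10+12 (adjusted p = 0.142 in edgeR). The call in TDP-PBS was lost without TDP-PBS mouse 124 (0.58, adjusted p = 0.0593). Its partner H2-Oa rose in TDP-15 (0.93). H2-DMb2, the copy of H2-DMb1, was not called, with log2 fold changes of 0.17, 0.10 and 0.27.

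Genes that act after the complex reaches the surface also changed. All 4 tested costimulatory and inhibitory ligands rose in each group, in TDP-PBS Icosl by 1.45, Cd274 (PD-L1) by 1.44, Cd80 by 1.14 and Cd86 by 0.77 on the log2 scale. The call of Cd80 in TDP-15 (0.71) was lost without any 1 of 7 mice, 232 among them. Marchf1, the ubiquitin ligase that removes class II from the surface, fell by 0.42, 0.29 and 0.33, while the related ligase Marchf8 had 0.06, 0.08 and 0.15 and rose in TDP-15 (edgeR adjusted p = 0.0124). The receptors that bind class II went in opposite directions, although each is also expressed outside T cells. Lag3, an inhibitory receptor, rose by 1.42, 1.04 and 1.64, from a median of 4.85 CPM in ctrl-PBS to 14.4, 9.77 and 13.3 CPM. Cd4, the coreceptor, fell by 1.19, 1.34 and 1.60, from 20.1 CPM to 8.37, 6.87 and 6.39 CPM, with ctrl-PBS mice spread from 1.79 to 35.3 CPM.

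**Figure D4:**
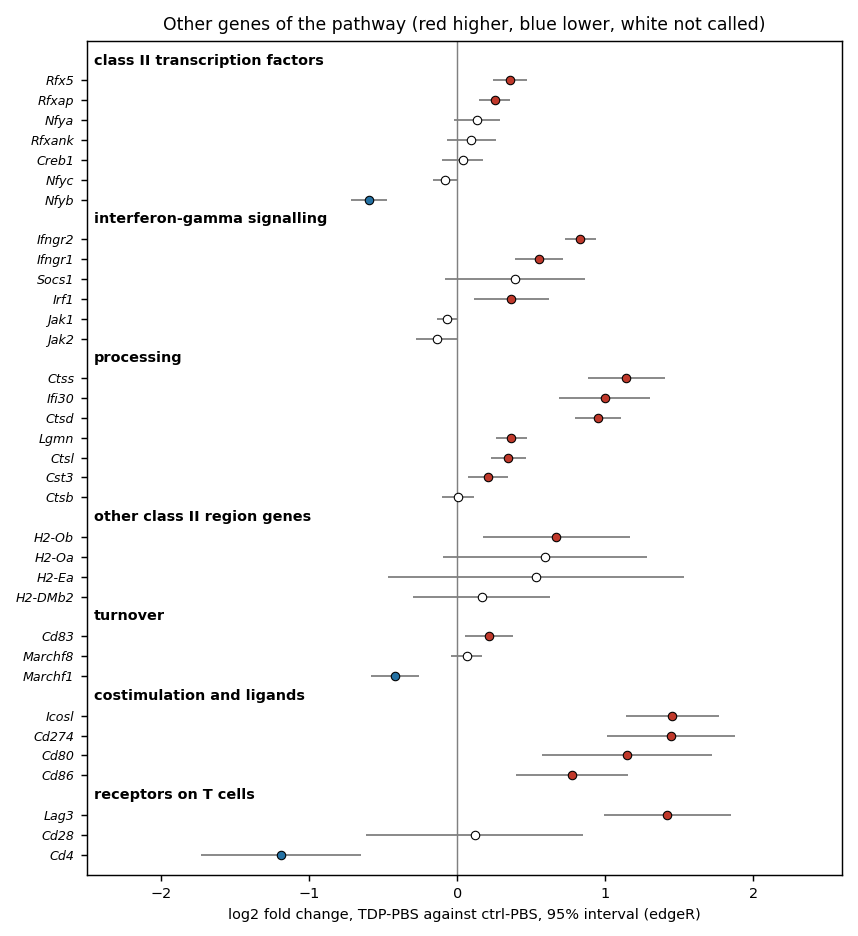
Log2 fold changes of the 34 tested pathway genes in TDP-PBS against ctrl-PBS with 95% intervals from edgeR, grouped by role (red: higher, blue: lower, white: not called). The processing, ligand and interferon-gamma groups hold most of the genes called higher, led by Icosl at 1.45, and the 3 genes called lower are Nfyb, Marchf1 and Cd4.

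H2-Ea, the α chain that pairs with the product of H2-Eb1, was unlike the other chains. It is known that the C57BL/6J haplotype does not make this chain while that of C3H/HeJ does, so these mice of mixed background may differ in the gene. H2-Ea had 0 to 108 counts in ctrl-PBS, 0 to 56 in TDP-PBS, 11 to 196 in TDP-10+12 and 0 to 110 in TDP-15. There were 0 counts in ctrl-PBS mouse 322, TDP-PBS mouse 196 and TDP-15 mouse 328, although H2-Aa had 34, 213 and 263 counts there. At these depths 0 counts allows a level of up to 3 counts, or 0.139 to 0.165 CPM. H2-Ea was called higher in TDP-10+12 (log2 fold change 1.35, edgeR adjusted p = 0.0181) and not in TDP-PBS (0.53, adjusted p = 0.406) or TDP-15 (0.89, adjusted p = 0.109), and between the bigenic groups it was not called. Single mice decided these calls, since without TDP-10+12 mouse 130 the value in TDP-10+12 was 0.95 (adjusted p = 0.114) and without ctrl-PBS mouse 232 that in TDP-15 was 1.26 (adjusted p = 0.0177). Over the 32 bigenic mice its correlation with H2-Aa was 0.03 (Pearson) and 0.23 (Spearman), and with H2-Eb1 -0.26 and -0.22, given as a description. How the haplotype a mouse carried affects the counting of this and the other H2 genes was not tested.

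**Figure D5:**
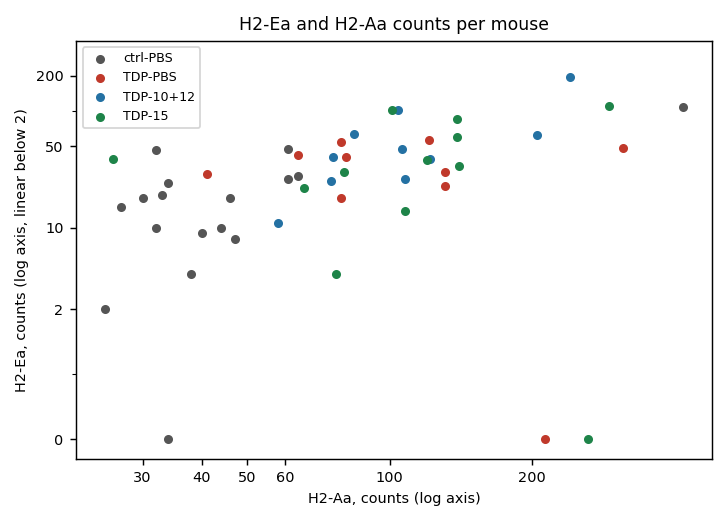
Counts of H2-Ea (log axis, linear below 2) against counts of H2-Aa (log axis) in each of the 49 mice, coloured by group. The 3 mice at 0 for H2-Ea have 34, 213 and 263 counts of H2-Aa, and the mouse highest for H2-Ea (196 counts) belongs to TDP-10+12.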

How the data were processed

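Neocortical RNA (200 ng of total RNA from about 30 mg of tissue per mouse) was read by the authors in pairs of 100 bp and aligned to GRCm38.p6. The deposited values are raw counts per gene and mouse, as whole numbers. The submitters' processing notes name HISAT2, Bowtie2, RSEM and mm10. The annotation and the strand setting are not given in the sources used here. The study names DESeq2 for its own tests. Groups came from the sample labels. Within groups no pair of libraries was a copy (smallest chi-squared per degree of freedom 7.77). Replicates are separate mice. All columns of the table belonged to a sample.

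The filter was filterByExpr with the groups (minimum count 10, minimum total 15). After TMM scaling, 1 model of all 49 mice without covariates was fitted and tested with edgeR's quasi-likelihood test (edgeR 4.0.16, R 4.3.3), with Benjamini-Hochberg adjustment over 18220 genes. Tests were two-sided. Standard errors were derived from the F statistic, and 95% intervals use 45 residual degrees of freedom. The genotype by sex interaction was fitted in the 27 PBS-treated mice. The likeness and correlations used log2 CPM with a prior count of 2 (numpy 2.4.6, scipy 1.17.1, Python 3.11.15), and figures matplotlib 3.10.9. Alternatives used DESeq2 1.42.0 and limma 3.58.1, among others. Exon lengths were merged coding-transcript exons of GENCODE vM21, and positions and promoters came from RefSeq.

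On simulated counts for TDP-PBS against ctrl-PBS, with 18041 genes tested and 200 changed by 2-fold, 183 of the 199 that were tested (92%) were recovered, with 7 calls in error. The data differ from this setting, since 21.9% of genes were called higher and 21.6% lower in that comparison. Recovery was not split by expression level, so it gives no rate for low-count members such as Ciita.

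The members, the pathway and marker lists and the tests were chosen with earlier results of these data known. The genes named are the 7 members, the 5 genes most like each, the pathway and marker genes with the 3 largest and 3 smallest log2 fold changes called in TDP-PBS, the genes that define a list, and H2-Ea. Brd2, Dexi and Tardbp were named for checks, and the other genes were chosen for naming once their values were known. A few genes first put on the pathway and marker lists are not reported here and were left out of the counts and sums.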

Additional observations from a re-analysis of the deposited data

How the results depend on the processing

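Alternatives were other scalings, no filter, sex as a covariate, a minimum of 10 counts in each mouse, only the 2 groups compared, DESeq2, limma-voom, an absolute log2 fold change over 1 and each mouse left out in turn. Leaving out mouse 232 as a setting of its own (also in the sex test) and the mice above 100 CPM of Ttr were added after the data had been seen. All 243 log2 fold changes against ctrl-PBS stayed above 0, 224 of them on their side of the threshold, and all 241 between bigenic groups stayed uncalled. With an absolute log2 fold change over 1 the number of members called moved to 2 in TDP-PBS and 2 in TDP-15, and in TDP-10+12 only H2-Ab1 (1.21) and Cd74 (1.25) remained. Without ctrl-PBS mouse 232 the number was 6 in TDP-PBS, 5 in TDP-10+12 and 7 in TDP-15. With each mouse left out in turn it lay between 3 and 6 in TDP-PBS, 3 and 5 in TDP-10+12 and 3 and 7 in TDP-15. The lowest numbers in TDP-PBS and TDP-15 go back to TDP-PBS mice 82 and 196 and TDP-15 mouse 126, and H2-Aa in TDP-10+12 passed without TDP-10+12 mouse 266 (edgeR adjusted p = 0.0497), 277 (0.0415) or 301 (0.0495) as well as without 232. Members correlated with Cd74 among ctrl-PBS mice went from 3 to 0 without mice 131 and 232. A count of at least 10 in every mouse left 5 members, and a fit of only the 2 groups compared left out Ciita. No paired analysis was possible because every mouse is a separate animal and the labels give no litter or other number shared between groups. Ciita had the fewest counts of the members, down to 1 in a ctrl-PBS mouse.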
